A study of Bos taurus with 6 samples.

Results

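Transcripts of 10 BCL2 family genes were followed in bovine granulosa cells (GC) that had been plated at normal or at high density. The genes are BCL2, BCL2L1, MCL1 and BCL2A1, which keep cells alive, BAX and BAK1, which open the outer mitochondrial membrane, and BID, BAD, BCL2L11 and PMAIP1, which start the death signal. They were taken from the deposited table by gene symbol, and each symbol has a single transcript cluster, the set of probes that the array summarizes as a gene, so the set is 10 of 26773 transcript clusters. GC came from pooled ovaries of slaughtered cows and were grown on collagen for 9 days in serum-free medium with FSH, IGF-1 and androstenedione. There were 3 cultures at normal density and 3 at high density, which differed in the number of cells plated, and each culture was measured on its own Bovine Gene 1.0 ST Array. GC were primary cells from small to medium follicles of cows of undefined cycle stage, and every preparation was a pool of many animals.

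BCL2 family proteins decide whether mitochondria release cytochrome c. BAX and BAK1 form the pores, the survival members bind and hold them, and the BH3-only members, named for the short helix they share, either block the survival members or activate BAX and BAK1 directly. In the follicle, death of GC through this route accompanies atresia, the loss of follicles that do not ovulate. Much of the control lies in protein turnover, phosphorylation and splicing, which an array signal summarized over a gene does not measure.

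The signals are log2 values made by the authors with the RMA procedure, and a log2 fold change is the mean at high density minus that at normal density, given with its standard error (SE). They were tested with limma's moderated test, adjusted by the Benjamini-Hochberg procedure over all transcript clusters. A gene is termed called when the fold change (FC) exceeded 1.5 in size and both the p-value and the adjusted p were below 0.05. Signals of reporter control rows served as the background level, 4.62 on the log2 scale, their 95th percentile. The array medians were between 4.34 and 4.43. RNA came from whole cultures, so fewer cells expressing a gene and less RNA per cell cannot be told apart. No label names separate animals for the cultures of a density, and the p-values measure only the spread between these cultures.

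All 15 GC markers examined, among them FOXL2 and FSHR, lay above the background level at normal density, CYP19A1 fell below it at high density with a mean of 3.71, and 6 of them were called lower at high density (FOXL2, CYP19A1, FSHR, INHA, FST and INHBA). None of 17 leukocyte markers reached that level at either density, PTPRC and CD68 included, and their summed linear signal was 159.7 to 162.9 at normal and 155.6 to 180.0 at high density. Of 7 theca markers, CYP17A1 stayed below background while INSL3 rose by 1.82 on the log2 scale (SE 0.09, limma's adjusted p = 3.88e-05). LHCGR, called lower with a log2 difference of −1.20, was below background at both densities, and the summed signal of the list was 338.7 to 370.3 at normal and 689.7 to 794.8 at high density. HBA among 8 red blood cell markers, CLDN5 among 10 endothelial markers and KRT8 and KRT18 among 9 markers of surface epithelium were called higher, while HBB, PECAM1, CDH5 and EPCAM were below background. Of 10 markers of stroma and smooth muscle, 9 lay above background, 3 were called higher and 1 lower. Their summed signal was 5442.0 to 5591.5 at normal and 6119.1 to 6314.1 at high density. The part of these lists in the changes of the BCL2 family was not tested.

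BCL2 and PMAIP1 were the called members, both higher at high density, 2 of 10, where 7.49% of all transcript clusters were called, 3.97% higher and 3.51% lower. At any FC, the adjusted p was below 0.05 for 5 members, BCL2, PMAIP1 and MCL1 with higher and BAX and BAK1 with lower signals, against 19.1% of the table (8.64% higher and 10.4% lower). The signals of the densities did not overlap for 6 members, against 37.3% of all transcript clusters. The median change of the 10 members was 0.08 on the log2 scale and that of all transcript clusters 0.02, and the median size of change was 0.22 and 0.15. Among the 8 members above background at either density, BCL2 was called, and 4 had an adjusted p below 0.05. Of all transcript clusters above background 12.8% were called and 31.9% had an adjusted p below 0.05.

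**Figure D1:**
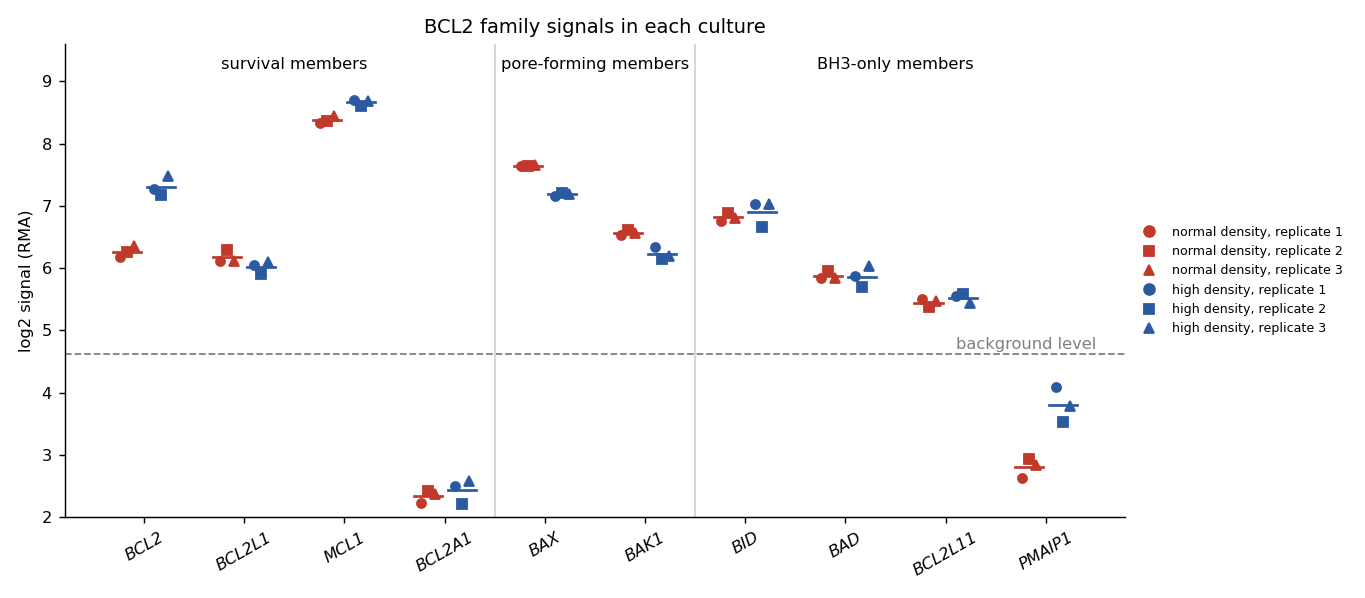
Log2 RMA signal of each member (x axis) in each of the 3 normal density (red) and 3 high density (blue) cultures, with symbols for the replicate numbers, short lines for group means and a dashed line for the background level of 4.62. BCL2 and MCL1 lie higher and BAX and BAK1 lower in all high density cultures, while BCL2A1 and PMAIP1 lie under the dashed line at both densities.

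BCL2, the founding survival gene of the family, had signals of 6.17, 6.26 and 6.35 in the normal density cultures and of 7.26, 7.18 and 7.48 in the high density cultures. Every high density culture lay above every normal density culture, and the gap between the nearest ones was 0.83. The log2 fold change was 1.05 (SE 0.10, 95% confidence interval 0.82 to 1.28, limma's adjusted p = 4.90e-04), a linear fold of 2.07. Leaving out any single culture kept the call, with log2 fold changes between 0.96 and 1.11. Only 2.23% of the transcript clusters in the table changed by more.

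MCL1, a survival protein that is made and degraded within short times, had signals of 8.32, 8.37 and 8.45 at normal and of 8.70, 8.61 and 8.68 at high density. The groups did not overlap, with a gap of 0.16 that exceeded the range within either density. The rise was small, a log2 fold change of 0.28 (SE 0.07, interval 0.12 to 0.45, limma's adjusted p = 0.0294), and it did not reach the FC threshold. The adjusted p was 0.05 or higher, between 0.0615 and 0.112, without any single normal density culture or without high density replicate 1 or 3, and 0.0193 without high density replicate 2.

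For BCL2L1, which encodes BCL-XL and from the same gene a shorter splice form that favours death, the signals were 6.11, 6.29 and 6.12 at normal and 6.06, 5.91 and 6.10 at high density. The highest high density culture was 0.0075 below the lowest normal density culture, so the groups were set apart by less than the spread within them. Its log2 fold change of −0.15 (SE 0.09, interval −0.35 to 0.05) had an adjusted p of 0.286 in limma. The interval did not reach the FC threshold, 0.58 on the log2 scale, on either side.

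BCL2A1, a survival gene best known from blood cells, was between 2.22 and 2.42 at normal and between 2.22 and 2.58 at high density. All 6 signals were below the background level, the groups overlapped, and the log2 difference was 0.09 (SE 0.11, limma's adjusted p = 0.624). Leukocyte markers were below background as well, as given above.

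Both pore-forming members fell. The BAX signals of 7.64, 7.65 and 7.66 at normal density had the smallest SD of the 10 members, 0.01, and those at high density were 7.16, 7.21 and 7.19. The gap between the groups was 0.43, while the ranges within them were 0.02 and 0.05. BAX changed by −0.46 on the log2 scale (SE 0.06, interval −0.61 to −0.31, limma's adjusted p = 0.00237), a linear fold of 1.38, which is under the FC threshold, so it was not called. Its adjusted p stayed below 0.05 in all 15 alternative settings, between 5.54e-04 and 0.0165.

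BAK1, the partner of BAX that sits in the mitochondrial membrane already in healthy cells, had signals of 6.53, 6.61 and 6.56 at normal and of 6.34, 6.15 and 6.19 at high density. No high density culture reached the normal density range, and the gap was 0.19. The log2 fold change was −0.34 (SE 0.08, interval −0.52 to −0.16, limma's adjusted p = 0.0211), also under the FC threshold. Without any single normal density culture or without high density replicate 3 the adjusted p was between 0.0617 and 0.0852, and without high density replicate 1 or 2 it was 0.0200 and 0.0282.

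**Figure D2:**
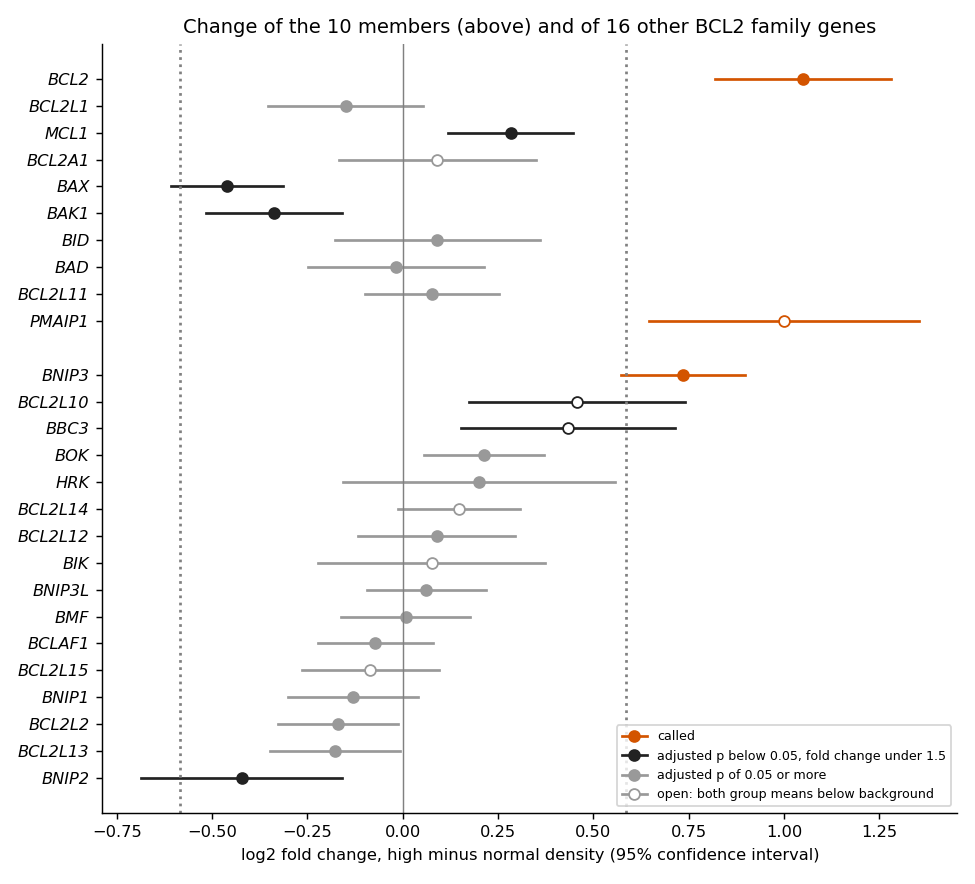
Log2 fold change, high minus normal density (x axis), with its 95% confidence interval, for the 10 members and, below them, 16 other genes of the family in order of change. Dotted lines mark the FC threshold of 1.5, orange marks called genes, black those with an adjusted p below 0.05 and a smaller FC, grey the rest, and open circles genes with both group means below background. Of the members BCL2 and PMAIP1 lie beyond the dotted line, and BAX and BAK1 on the negative side of 0 with intervals that do not reach it.

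Of the BH3-only members, PMAIP1 alone passed the test, and its signals were weak. PMAIP1 encodes NOXA, which binds MCL1 and hastens its breakdown. The signals were 2.64, 2.93 and 2.84 at normal and 4.10, 3.53 and 3.79 at high density. The groups lay 0.59 apart, although all 6 signals were below the background level, which limits what the size of the difference can say. On the log2 scale the difference was 0.9997 (SE 0.15, interval 0.65 to 1.35, limma's adjusted p = 0.00378), and with single cultures left out it was between 0.85 and 1.14 and called each time.

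BID, which caspase-8 cuts to carry a death receptor signal to the mitochondria, had signals of 6.76, 6.88 and 6.81 at normal and of 7.04, 6.65 and 7.03 at high density. High density replicates 1 and 3 were above, and replicate 2 below, all normal density cultures. The log2 fold change was 0.09 (SE 0.11, interval −0.18 to 0.36, limma's adjusted p = 0.641), and without high density replicate 2 it was 0.22 with an adjusted p of 0.0530.

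BAD, which survival kinases silence by phosphorylation, was measured at 5.85, 5.95 and 5.84 at normal and at 5.87, 5.69 and 6.03 at high density. The high density cultures enclosed the normal density range on both sides. Its log2 difference was −0.02 (SE 0.10, interval −0.25 to 0.21, limma's adjusted p = 0.923), and the sign turned under a second quantile normalization, with array weights and without normal or high density replicate 2.

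BCL2L11 encodes BIM, which binds all survival members and is a target of FOXO factors when growth factors are withdrawn. Signals were 5.50, 5.37 and 5.47 at normal and 5.56, 5.58 and 5.44 at high density, and the groups overlapped. The log2 fold change was 0.08 (SE 0.08, interval −0.10 to 0.25, limma's adjusted p = 0.530). For BID, BAD and BCL2L11 the intervals did not reach the FC threshold on either side.

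The cultures at high density varied more. In 9 of the 10 members the SD was larger at high than at normal density, against 68.4% of all transcript clusters. For BCL2L1 and BCL2L11 the SDs were equal at 2 decimals, 0.10 and 0.07, which leaves 7 of the 10. At 2 decimals it was larger for 17640 of the 26773 transcript clusters, so the members stayed near the array as a whole. For MCL1 the SD was 0.05 at high and 0.06 at normal density. The median SD of the members was 0.13 at high and 0.07 at normal density. High density replicate 2 was the lowest of the high density cultures in 8 members, all except BAX and BCL2L11, where 43.9% of the table had its lowest high density signal in this culture. It was lower than the mean of the other high density cultures by the most for PMAIP1, where the difference was −0.42, followed by BID with −0.38 and BCL2A1 with −0.32. The rise of BCL2 and the fall of BAX were present without this culture, with log2 fold changes of 1.11 and −0.47.

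**Figure D3:**
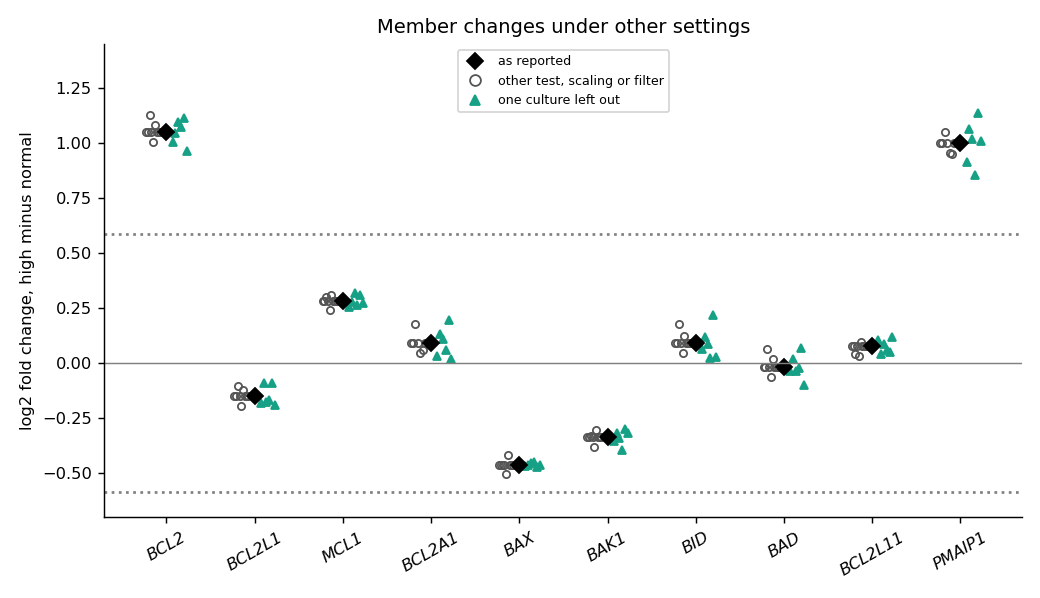
Log2 fold change of each member as reported (black diamonds), under 9 other tests, scalings, filters or thresholds (open circles) and with each of the 6 cultures left out (green triangles), with dotted lines at the FC threshold of 1.5. BCL2 and PMAIP1 stay above the upper line, BAX and BAK1 stay between −0.30 and −0.50, and BAD lies on both sides of 0. BCL2A1 and PMAIP1 have no values for the filters on low signals, which leave them out.

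The balance of survival and death genes was described within each culture as the log2 signal of a survival member minus that of a death member, with the mean of the normal density cultures set to 0. Levels of different genes on an array are not comparable, so the shift between the densities is the quantity given. BCL2 minus BAX was −0.08, −0.003 and 0.08 at normal and 1.49, 1.36 and 1.68 at high density, a shift of 1.51 or a linear fold of 2.85, to which the rise of BCL2 added more than the fall of BAX. For BCL2L1 minus BAX the values were −0.05, 0.12 and −0.07 at normal and 0.37, 0.17 and 0.39 at high density, with a shift of 0.31. The shift of MCL1 minus BCL2L11 was 0.20, with high density cultures between 0.10 and 0.31 and normal density cultures between −0.11 and 0.06. The shift for BCL2L1 came from the fall of BAX. The pair of MCL1 and PMAIP1, added after the values were seen, shifted the other way by −0.72, with high density cultures between −0.97 and −0.49 and normal density cultures between −0.14 and 0.11, and its PMAIP1 signals were below background.

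**Figure D4:**
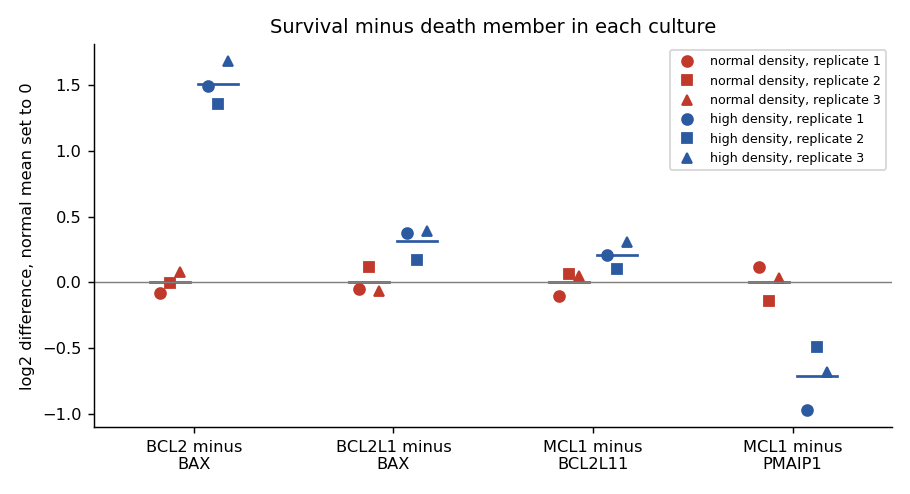
Log2 signal of a survival member minus that of a death member in each culture (y axis), relative to the mean of the 3 normal density cultures, for 4 pairs of genes. Red symbols are normal density and blue symbols high density cultures, and short lines are group means. The shift is 1.51 for BCL2 minus BAX, 0.31 for BCL2L1 minus BAX, 0.20 for MCL1 minus BCL2L11 and −0.72 for MCL1 minus PMAIP1.

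Among 16 other genes of the family and its binding partners, BNIP3 was called, 6.25% of the list against 7.49% of all transcript clusters, and 4 had an adjusted p below 0.05 at any FC, 25.0% against 19.1%. BNIP3 encodes a mitochondrial protein with a BH3-like stretch that is induced by low oxygen and marks mitochondria for autophagy. Its signals were 10.28, 10.34 and 10.25 at normal and 11.06, 11.06 and 10.96 at high density, and rose by 0.74 on the log2 scale (SE 0.07, limma's adjusted p = 4.95e-04). Its relative BNIP3L, which serves the same process, was measured at 10.64 ± 0.03 and 10.70 ± 0.05 (SD, n = 3), and its change was 0.06 on the log2 scale (limma's adjusted p = 0.574).

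BNIP2, a binding partner of BCL2, fell by 0.42 on the log2 scale (limma's adjusted p = 0.0386). BBC3, which encodes the BH3-only protein PUMA, had a log2 difference of 0.43 (limma's adjusted p = 0.0439), and BCL2L10, a further survival member, of 0.46 (limma's adjusted p = 0.0372). For both of these all signals were below the background level. The survival gene BCL2L2 had a log2 fold change of −0.17 and the pore-forming relative BOK of 0.21, with adjusted p-values of 0.130 and 0.0683 in limma.

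The remaining BH3-only genes HRK, BIK and BMF had log2 fold changes of 0.20, 0.08 and 0.007, and their groups overlapped. BCL2L12, BCL2L13, BCL2L14, BCL2L15, BNIP1 and BCLAF1 had log2 fold changes between −0.18 and 0.15 and adjusted p-values above 0.05. The median change of the 16 genes was 0.07.

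Downstream of the mitochondrial pore, none of 27 transcript clusters for released proteins, the apoptosome, inhibitors of apoptosis (IAPs) and mitochondrial membrane proteins was called by limma. The methods' t-test called 0 as well. Over the array, limma called 7.49% of all transcript clusters and 12.8% of those above background, which for a list of 27 stands for few calls. An unadjusted p below 0.05 was found by limma for 9, or 33.3%, close to the 32.3% of all transcript clusters, and the median change was −0.06. The adjusted p was below 0.05 for 3, or 11.1%, against 19.1% of all transcript clusters. Of all transcript clusters above background, where 22 of the 27 lay, it was below 0.05 for 31.9%. Of these 3, VDAC2, a channel that holds BAK1 in the outer membrane, rose by 0.43 on the log2 scale. The IAP genes BIRC5 and BIRC6 fell by 0.42 and 0.39. CYCS, which encodes cytochrome c, had signals of 7.10 ± 0.07 and 7.22 ± 0.05 (SD, n = 3). APAF1, the scaffold of the apoptosome, had a log2 fold change of −0.21 and the initiator caspase gene CASP9 of −0.19, with adjusted p-values of 0.185 and 0.0939 in limma. XIAP, the IAP that blocks caspases directly, had a log2 fold change of −0.16 (limma's adjusted p = 0.557).

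A list of 30 genes held transcription factors that act on BCL2 family promoters and genes tied to such factors, as cofactors or targets. Of these 9 were called, 6 higher and 3 lower, and the median change was 0.03. These 9 of 30 stood against 7.49% of all transcript clusters and 12.8% of those above background. The list was chosen with earlier results of these data known, so its share called is not a test of the list. TRIB3, a target of the stress factors ATF4 and CHOP, changed by 1.83 on the log2 scale (SE 0.16, limma's adjusted p = 3.42e-04), from a normal density signal of 3.45 that was below background. DDIT3, which encodes CHOP and is known for lowering BCL2 and raising BIM, rose by 1.13 (SE 0.09, limma's adjusted p = 2.74e-04). ATF4, the factor above both, rose by 0.80, and ATF3 by 0.72. The immediate early gene EGR1 rose by 0.73 and BCL3, an NF-κB cofactor that is no relative of BCL2 in structure, by 0.70.

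REL, an NF-κB subunit that drives BCL2L1 and BCL2A1 in lymphocytes, fell by 1.09 on the log2 scale (SE 0.13, limma's adjusted p = 0.00134), followed by FOXO4 with a fall by 0.70 and E2F1 with one by 0.67. FOXO1 fell by 0.41, under the FC threshold. FOXO3, a known activator of BCL2L11, had signals of 8.96 ± 0.04 and 8.89 ± 0.12 (SD, n = 3), a difference of −0.06 on the log2 scale (limma's adjusted p = 0.639).

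BAX, PMAIP1 and BBC3 belong to the genes induced by DNA damage, and 24 transcript clusters for other genes of that response were examined. Of these 8 were called, 5 higher and 3 lower, which is 33.3% against 7.49% of the whole array and 12.8% of what lay above background. These genes, too, were chosen with earlier results of these data known, so the share is not a test of the list. The median change of the list was 0.02. TNFRSF10D, a decoy receptor for the death ligand TRAIL, rose by 1.78 (SE 0.12, limma's adjusted p = 1.00e-04), SESN2 by 0.91, GADD45B by 0.79 and GADD45A by 0.66 on the log2 scale. TP53INP1, a stress-induced gene that acts in cell death and autophagy, fell by 0.97 (SE 0.10, limma's adjusted p = 7.71e-04), and ZMAT3 by 0.88. The cell cycle inhibitor CDKN1A fell by 0.45 and CCNG1 by 0.43, both under the FC threshold, while MDM2 and FAS had log2 fold changes of −0.24 and −0.36 with adjusted p-values of 0.115 and 0.119 in limma. SESN2, GADD45A and GADD45B are also known targets of ATF4 or other stress pathways. Which pathway lay behind the changes in this list, higher or lower, was not tested.

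Transcripts for proteins that bind, modify or degrade BCL2 family members were measured by 52 transcript clusters of 44 genes. Of these transcript clusters 7 were called, 4 higher and 3 lower, with a median change of −0.03. The share called was 13.5%, near the 12.8% of all transcript clusters above background, where 49 of these 52 lay. NR4A1, a nuclear receptor that can bind BCL2 at the mitochondria, rose by 1.75 on the log2 scale (SE 0.11, limma's adjusted p = 9.73e-05). The kinase genes PIM2 and PIM1, whose products phosphorylate BAD, rose by 0.98 and 0.73, and the co-chaperone gene BAG2 rose by 0.99. CASP8, for the caspase that cuts BID, fell by 0.86, and PAWR, which represses BCL2, fell by 0.74 (SE 0.15, limma's adjusted p = 0.0132).

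Genes of this list that act in the turnover of MCL1 are described next, as chosen after their values were seen. FBXW7, the ubiquitin ligase subunit that recognises MCL1, fell by 0.65 on the log2 scale (SE 0.07, limma's adjusted p = 7.93e-04), from 4.99 to a high density mean of 4.34 that was below background. HUWE1, the ligase known as MULE, fell by 0.44 and BTRC by 0.40, and USP9X, which removes ubiquitin from MCL1, fell by 0.52, all with an FC under 1.5. The kinase genes GSK3A and GSK3B, whose products mark MCL1 for breakdown, had log2 fold changes between −0.21 and −0.09, and TPT1, for a protein that stabilizes MCL1, had log2 fold changes between 0.07 and 0.19, with adjusted p-values above 0.05 in limma. DYNLL1 and DYNLL2, the dynein light chains that tether BIM and BMF to the cytoskeleton, fell as well. The 2 transcript clusters of DYNLL1 both changed by −0.40 and that of DYNLL2 by −0.28. Of the 52 transcript clusters in this list 15 had an adjusted p below 0.05, 11 with lower and 4 with higher signals. These 15 were 28.8% of the list, against 31.9% of all transcript clusters above background, where 49 of the 52 lay. Over the whole array, low signals included, 10.4% were lower and 8.64% higher at this threshold. The share above background was not split by direction.

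**Figure D5:**
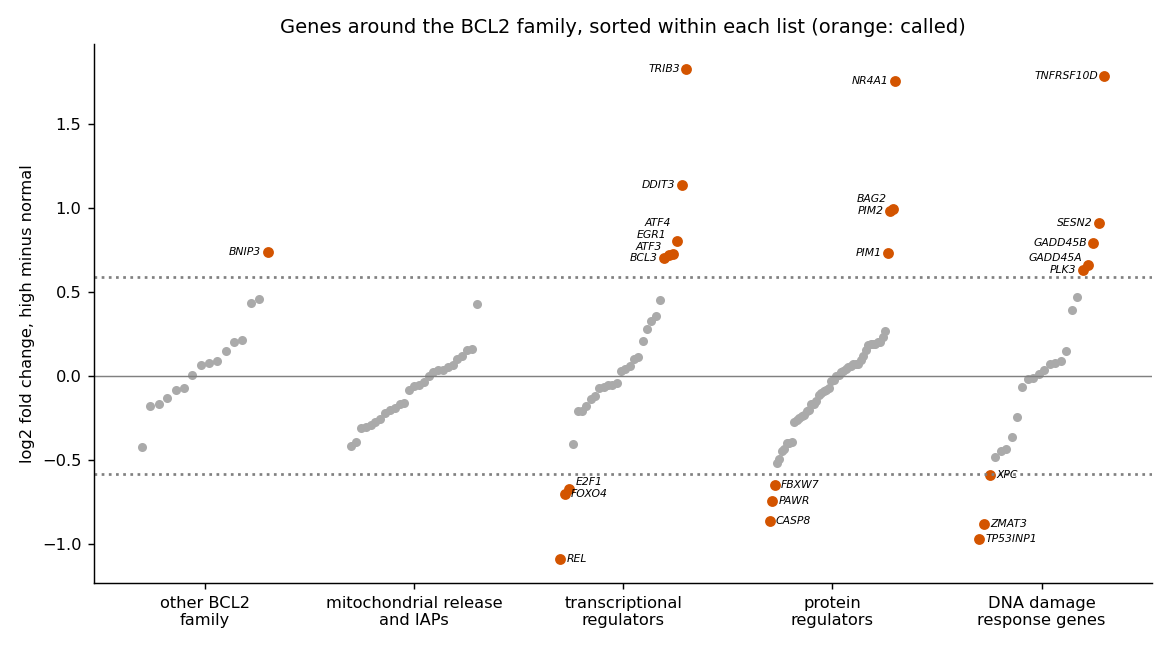
Log2 fold change, high minus normal density (y axis), of every transcript cluster in 5 lists of genes around the BCL2 family, sorted by change within each list. Orange points with names are called, grey points are not, and dotted lines mark the FC threshold of 1.5. The list of mitochondrial release and IAP genes has no called point, and the stress genes TRIB3 and DDIT3, NR4A1 and TNFRSF10D lie highest.

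The transcript clusters whose pattern was most like that of each called member were found by the root mean square distance of log2 signals over the 6 cultures, each gene centred on its own mean. Since the centring runs over both densities, this distance is small mainly for genes with a like change between densities. It does not show shared regulation, which was not tested. Nearest to BCL2 were DDIT3 with a distance of 0.06, GLIPR2 with 0.07 and FAM57A with 0.07. Their log2 fold changes were 1.13, 1.03 and 1.02, against 1.05 for BCL2. For PMAIP1 they were SH2B2 with 0.08, BGN with 0.09 and MAP4K2 with 0.10. BGN and PMAIP1 were below background at both densities. DDIT3 had signals of 6.70, 6.81 and 6.84 at normal and of 7.80, 7.87 and 8.09 at high density. As with BCL2, the highest culture was high density replicate 3. The lowest high density culture differed, replicate 1 for DDIT3 and replicate 2 for BCL2.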

How the data were processed

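The authors hybridized RNA of 6 GC cultures to Affymetrix bovine gene arrays and processed the scans in Affymetrix Expression Console with RMA (background reduction, normalization and gene-level summary). In the deposited table these are log2 signals of 26773 transcript clusters, 82 of them reporter controls, and 0 columns of other samples. No further normalization was applied. Gene symbols are those of the table. The accessions of 8 of the 10 members carried the same symbol in RefSeq (ARS-UCD2.0), and the other 2 members have Ensembl accessions. None shares its signals with another transcript cluster. The array's genome build is not given in the sources used here, so no coordinates are printed, and no sequences were used here.

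High and normal density were compared by limma 3.58.1 (R 4.3.3) through lmFit and eBayes without covariates, and p-values were adjusted over the whole table (Benjamini-Hochberg). The thresholds follow the methods of the study, which used analysis of variance. With 3 cultures in each group, exact permutation p-values start at 0.1. The number of arrays limits the precision. The fits were tested on simulated data. Members, lists and markers were chosen with earlier results of these data known. Symbols AEN, PHLDA3, TIGAR and BIRC2 were not matched to a row, and PIDD1 was used under its older symbol PIDD.

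Named were all members, all genes of the other BCL2 family list, up to 6 called genes per list by size, the markers and the 3 nearest patterns of each called member. The other genes named were chosen after their values were seen. Alternatives were the methods' t-test, trended robust variances, a replicate block, array weights, 2 rescalings, 2 filters on low signals, an FDR threshold of 0.01 and leaving out each culture. Results of 2 listed genes are not reported here. The count of members by adjusted p at any FC was added after the data were seen. Figures were drawn with matplotlib 3.10.9.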

Additional observations from a re-analysis of the deposited data

How the results depend on the processing

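The calls of BCL2 and PMAIP1 were kept in every alternative that tested them. The number of called members was 1 with either filter on low signals (at the median or at the background level), because PMAIP1 was then not tested. The number of members with an adjusted p below 0.05 at any FC, 5 as reported, was between 3 and 5 with single cultures left out. With the replicate block it was 3, since MCL1 and BAK1 had adjusted p-values of 0.0760 and 0.0604. The block changed no call of a member. Deviations from the density means had correlations over transcript clusters of 0.05, −0.05 and −0.04 for same-numbered cultures. For cultures of other numbers they were between −0.07 and 0.09. With 3 cultures per density these values cannot tell whether same-numbered cultures shared a preparation, and the labels do not say. The methods of the study speak of 6 GC preparations, 3 for each density. The log2 fold change of BAD, −0.02 as reported, was 0.0659 with array weights, 0.0188 after a second quantile normalization and between −0.101 and 0.0686 with single cultures left out. The causes were not tested. The counts of called genes in the lists other than the members moved by no more than 1.5 times. Over the table, 5106 transcript clusters had an adjusted p below 0.05, and between 3025 and 7977 in the alternatives. Signals near background limit what can be said of BCL2A1, PMAIP1, BBC3 and BCL2L10.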
